A study of Mus musculus with 12 samples.

Results

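The enzymes that carry glucose to pyruvate and lactate, those of the pentose phosphate pathway, and the proteins that bring pyruvate into the mitochondrion and oxidize it there were examined in mouse embryonic fibroblasts (MEF cells). The set was given by name and holds 37 genes that share these functions. All 37 are among the 43280 entries of the table for the mutant experiment, and 31 are among the 23930 entries of the table for the 2-HG experiment. A mean of at least 1 RPM over the 6 libraries of a table was needed for testing, and 30 of the 37 reached it in the first table and 28 in the second, the 28 being tested in both. RPM is a gene's reads per 1000000 reads counted on genes in that library.

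The cells came from C57BL/6 mouse embryos at day 13.5 and had become immortal by serial passage, without an introduced gene. 2MUT cells stably expressed a cancer-associated mutant of human IDH2 with a FLAG tag from a retroviral vector that confers puromycin resistance, and Control cells carried the mock vector. Whether the resistant cells were a pool or a clone is not stated. The 2-HG(+) cells of the other experiment were MEF cells kept for 24 h in 300 μM 2-HG, the metabolite made by mutant IDH enzymes, here as a membrane-permeant octyl ester. The 2-HG(-) cells received the solvent DMSO according to the sample labels, whereas the text of the study calls them non-treated. Each of the 4 groups had 3 libraries. The methods say that experiments were done in triplicate, without saying whether the 3 were separate cultures, so the p-values measure the spread between these libraries, which may be technical. The comparisons ask which enzyme transcripts differ between cells with and without the mutant, and which differ after a day of 2-HG.

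The libraries held between 6472439 and 7313602 reads in the first table and between 14959318 and 18363768 in the second. A count of 3 reads, taken as the detection limit, was worth 0.41 to 0.46 RPM in the first and 0.16 to 0.20 RPM in the second, for counting error only. The libraries were made with an Ion AmpliSeq panel, which amplifies and reads 1 small stretch per gene. Levels are therefore compared for 1 gene between libraries and not between genes. The summed level of 9 fibroblast markers was 11459 to 12550 RPM in Control and 7881 to 8491 RPM in 2MUT, and 19738 to 21276 RPM in 2-HG(-) against 13547 to 14771 RPM in 2-HG(+). The sum, carried by Col1a1, Col1a2 and Vim, was lower in both treated groups. In 2MUT 6 of 7 markers tested were lower and with 2-HG 4 of 7, while Thy1 was higher with 2-HG at 0.71 ± 0.18 (limma adjusted p = 0.0136). Lum and Fap, also in that list, stood at or below 1.24 RPM on average in every group. Epithelial markers summed to at most 0.6 RPM and endothelial ones to at most 2.94 RPM. Leukocyte markers summed to at most 13.5 RPM, nearly all from Cd68, which was lower with 2-HG at -0.51 ± 0.14 (limma adjusted p = 0.0214). Muscle markers summed to at most 7.95 RPM. Neuronal markers, which here were mainly Map2, summed to at most 21.7 RPM. The part of these differences in the results that follow was not tested. In the second table, replicate 2 of 2-HG(-) and replicate 1 of 2-HG(+) departed from their group means together, with a correlation of 0.48 across 10384 genes, which are not independent of each other. Replicate 1 of 2-HG(-) and replicate 3 of 2-HG(+) did so too, at 0.41. Counts are therefore also given without each of these pairs.

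Glycolysis splits glucose into trioses and oxidizes them to pyruvate, and lactate dehydrogenase interconverts pyruvate and lactate. The pentose phosphate pathway branches off at glucose 6-phosphate and yields NADPH and ribose 5-phosphate. Pyruvate that enters the mitochondrion is decarboxylated by the pyruvate dehydrogenase complex, which a family of kinases phosphorylates and thereby inhibits. Many of these enzymes exist as isoforms encoded by different genes, and several of the genes are known targets of the hypoxia-inducible factor HIF-1.

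In 2MUT cells Hk1, Pfkl, Ldhb and Pgd were higher than in Control. Lower were Gpi1, Pfkp, Aldoa, Gapdh, Eno2 and Eno3 of glycolysis, Pgls and Tkt of the pentose phosphate pathway, and Pdk2, Pdha1 and Dlat around the pyruvate dehydrogenase complex. Of the 30 members tested, 4 were higher and 11 lower than in Control by limma with a Benjamini-Hochberg adjusted p under 0.05, and 15 did not pass. Among all 11065 genes tested, 16.5% were higher and 17.3% lower. The members' median change was -0.11 on the log2 scale, beside 0.0081 over all genes tested. In 6 members every 2MUT library lay above every Control library and in 12 below, where 23.5% and 24.0% of all genes tested did so, 47.5% together. The share called was 50% of the members and 33.8% of all genes. By the unmoderated test per gene, which is the test the study names, 2 members were higher and 6 lower, and 2244 of all genes were called in place of 3741. The calls of Hk1, Pfkl, Gapdh, Pgls, Tkt, Pdk2 and Dlat in 2MUT were lost by it, with adjusted p from 0.0501 to 0.121.

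After 2-HG the direction was mixed. Hk2, Eno3, Ldha, Pgls and Taldo1 were higher, and Pfkm, Eno2, Ldhb and Pdk2 were lower, which makes 5 and 4 of 28 members tested. The other 19 did not pass. Of the 10384 genes tested, 16.1% were higher and 16.7% lower, and 32.8% were called in either direction, close to the 32.1% of the members. The members' median change was 0.00078, beside -0.021 over all genes. Groups did not overlap in 6 members with 2-HG(+) above and in 4 with it below, where 22.2% and 24.1% of all genes tested did so, 46.3% together. Without replicate 2 of 2-HG(-) and replicate 1 of 2-HG(+), 4 members were higher and 3 lower. Without replicate 1 of 2-HG(-) and replicate 3 of 2-HG(+), 3 were higher, Hk2, Eno3 and Ldha, and 2 lower, Ldhb and Pdk2. The counts rest on few libraries. They fell to 3 higher when replicate 2 or 3 of 2-HG(-) or replicate 2 of 2-HG(+) was left out. Leaving out replicate 1 or 3 of 2-HG(-), or replicate 2 or 3 of 2-HG(+), left 2 lower, Ldhb and Pdk2. By the unmoderated test 4 were higher and 3 lower, the calls of Eno2, Pgls and Taldo1 being lost (adjusted p from 0.0925 to 0.13) and Pfkfb3 gained (adjusted p = 0.0449).

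**Figure D1:**
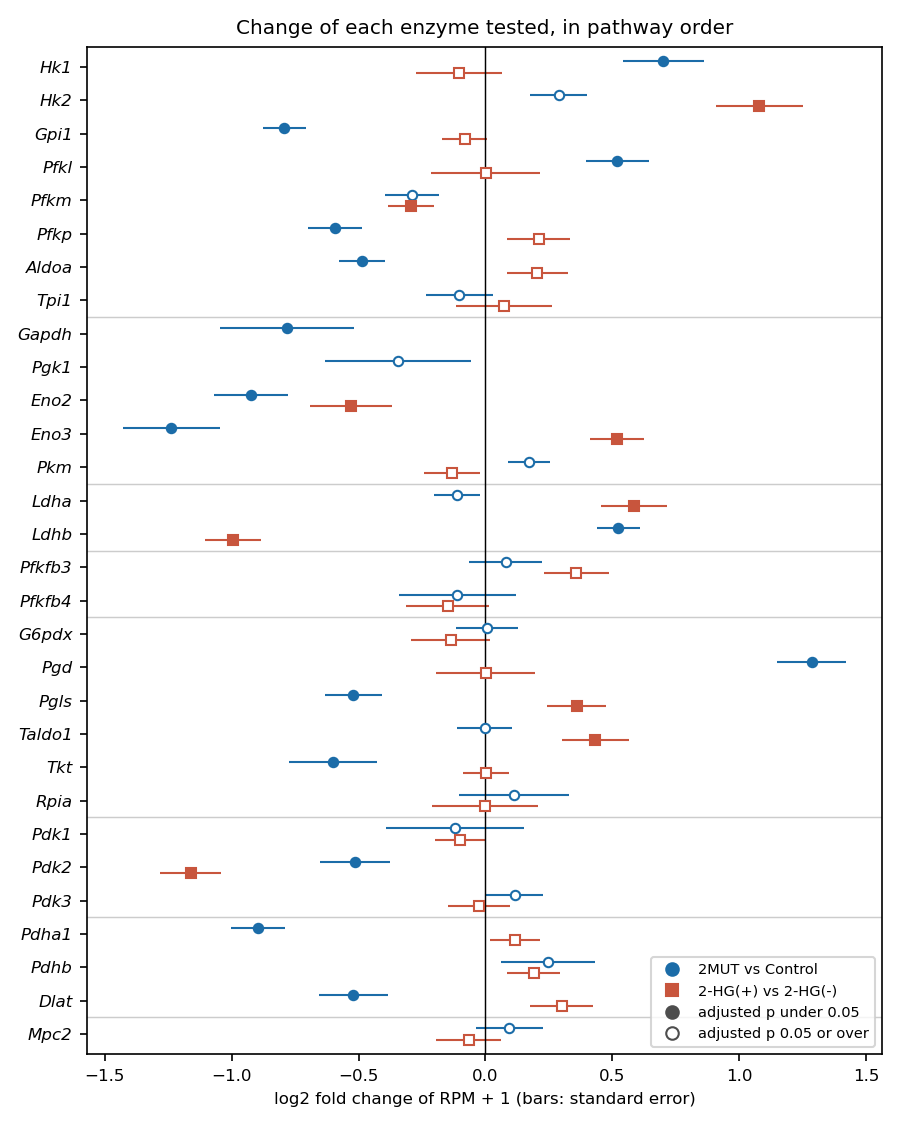
Log2 fold change of RPM + 1 (horizontal axis, bars are standard errors) of each of the 30 enzymes tested, in pathway order from top to bottom, for 2MUT vs Control (circles, 3 against 3 libraries) and 2-HG(+) vs 2-HG(-) (squares, 3 against 3). Filled symbols passed the threshold. Pgd at 1.29 is the highest filled circle and Eno3 at -1.24 the lowest, and Hk2 at 1.08 and Pdk2 at -1.16 are the extremes of the squares.

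Promoter sequences are shown for the 4 members with the largest absolute log2 changes after 2-HG, Hk2, Ldha, Ldhb and Pdk2, because HIF-1 and E-box factors act through short motifs upstream of such genes. Each is the 250 bases before a RefSeq start on build GRCm38.p6, 5′ to 3′ on the strand of the gene, with ACGTG or its reverse complement CACGT in capitals. ACGTG is the core of the hypoxia response element, and CACGTG, the E-box, holds it on both strands. The Hk2 window is chr6:82774455-82774704 on the minus strand, the Ldha window chr7:46845554-46845803 on the plus strand, the Ldhb window chr6:142507958-142508207 on the minus strand and the Pdk2 window chr11:95041372-95041621 on the minus strand. In GENCODE M21 the Hk2, Ldhb and Pdk2 windows lie just upstream of the gene, and the Ldha window lies inside the annotated span of that gene.
Hk2: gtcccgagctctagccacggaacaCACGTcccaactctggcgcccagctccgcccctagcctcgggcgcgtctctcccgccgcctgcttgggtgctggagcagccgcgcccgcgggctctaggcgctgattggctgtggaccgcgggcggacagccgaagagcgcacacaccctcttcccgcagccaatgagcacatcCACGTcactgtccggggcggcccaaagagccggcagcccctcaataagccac
Ldha: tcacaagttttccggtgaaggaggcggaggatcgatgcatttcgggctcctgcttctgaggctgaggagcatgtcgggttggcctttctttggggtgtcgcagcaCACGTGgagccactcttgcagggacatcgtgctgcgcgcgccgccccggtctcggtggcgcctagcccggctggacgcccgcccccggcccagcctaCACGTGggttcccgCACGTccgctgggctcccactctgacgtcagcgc
Ldhb: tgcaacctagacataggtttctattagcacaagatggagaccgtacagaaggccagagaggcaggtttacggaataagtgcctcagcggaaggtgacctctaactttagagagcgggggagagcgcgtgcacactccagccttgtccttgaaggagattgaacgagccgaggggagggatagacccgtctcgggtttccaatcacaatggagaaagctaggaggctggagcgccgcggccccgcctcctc
Pdk2: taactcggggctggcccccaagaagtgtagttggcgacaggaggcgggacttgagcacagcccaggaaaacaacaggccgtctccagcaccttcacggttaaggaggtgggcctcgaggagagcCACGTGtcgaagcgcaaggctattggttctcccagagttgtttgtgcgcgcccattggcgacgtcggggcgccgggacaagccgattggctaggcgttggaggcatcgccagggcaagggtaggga

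The Hk2 window holds 2 separate sites, which begin 226 and 52 bases before the start. In the Ldha window 3 sites begin 145, 48 and 34 bases before the start, 2 of them CACGTG. The Pdk2 window holds 1 site, a CACGTG that begins 126 bases before the start, and the Ldhb window holds none. Ldha and Pdk2 each have 2 windows in the table, of which the one with sites is printed, and the other holds 0. The transcribed end of the printed Ldha window was not found at a GENCODE M21 transcript start, whereas that of the other Ldha window was. All 37 members matched the promoter table, with 55 windows, and ACGTG was found on either strand in 16 of the 55 (29.1%), from 12 members. It was found in 16.6% of all 32851 windows of the table. CACGTG was in 5 member windows (9.09%) and in 6.02% of all windows. GGGCGG, the GC box, was in 29 member windows (52.7%) and in 32.7% of all. Windows of the same gene can overlap, so they are not separate promoters. Those of Aldoa at chr7:126799179-126799428 and chr7:126799255-126799504 overlap, and each holds ACGTG. A match describes these letters only and is no evidence of binding.

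The hexokinases phosphorylate glucose as it enters the cell. Hk1, the widely expressed isoform, read 29.4, 28.6 and 38.3 RPM in Control and 52.2, 44.5 and 61.8 RPM in 2MUT. All 2MUT libraries were higher, by 0.70 ± 0.16 (log2 fold change ± SE, n = 3 and 3, limma adjusted p = 0.00603), a call lost by the unmoderated test (adjusted p = 0.0742). With 2-HG its levels overlapped, at 115, 77.9 and 109.8 RPM in 2-HG(-) and 75.2, 101 and 103 RPM in 2-HG(+), a change of -0.10 ± 0.17. Hk2, the isoform known for its induction in growing and hypoxic cells, showed the converse. It read 40.2, 29.5 and 35.5 RPM in 2-HG(-) and 96.3, 64.9 and 66.5 RPM in 2-HG(+). The lowest 2-HG(+) library was well above the highest 2-HG(-) one, and the rise was 1.08 ± 0.17 (limma adjusted p = 0.00123). In the mutant experiment Hk2 read 133, 115 and 103 RPM in Control and 137, 149.8 and 141 RPM in 2MUT, which did not overlap but missed the threshold at 0.29 ± 0.11 (limma adjusted p = 0.069). Without replicate 1 of Control, its highest Control library, the Hk2 value was 0.38 and passed (limma adjusted p = 0.0209).

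Gpi1 converts glucose 6-phosphate to fructose 6-phosphate. It read 855, 769.9 and 812 RPM in Control and 462, 462 and 481 RPM in 2MUT. The 2MUT libraries lay close together and far below Control, at -0.79 ± 0.08 (limma adjusted p = 4.9e-05). It read 438, 429 and 464 RPM in 2-HG(-) and 438, 414 and 405.5 RPM in 2-HG(+), overlapping and not called.

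Phosphofructokinase commits the sugar to glycolysis and is built from liver, muscle and platelet type subunits. Pfkl, the liver type, read 71.3, 94.4 and 79.6 RPM in Control and 126, 117 and 108 RPM in 2MUT, higher in every library by 0.52 ± 0.12 (limma adjusted p = 0.00779), a call also lost by the unmoderated test (adjusted p = 0.0685). Pfkp, the platelet type, went the other way. It read 176, 204 and 172 RPM in Control and 113, 124 and 128 RPM in 2MUT, a change of -0.59 ± 0.11 (limma adjusted p = 0.00145). Pfkm, the muscle type, had the same size of change in both experiments. Its levels were 87.3, 84.8 and 97.8 RPM in Control and 70.9, 77.2 and 72.0 RPM in 2MUT, then 158, 148 and 143 RPM in 2-HG(-) and 119.8, 119 and 128 RPM in 2-HG(+). All treated libraries lay below all untreated ones in both, at -0.29 ± 0.11 in 2MUT (limma adjusted p = 0.0586) and -0.29 ± 0.09 with 2-HG (limma adjusted p = 0.0332). The second call was lost whichever of the 6 libraries was left out, with limma adjusted p from 0.0501 to 0.126. With 2-HG, Pfkl was at 90.4, 57.0 and 101 against 64.3, 82.9 and 97.8 RPM and Pfkp at 86.8, 67.2 and 75.7 against 87.7, 79.5 and 98.5 RPM, neither past the threshold and both overlapping.

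Aldolase splits fructose 1,6-bisphosphate. Aldoa, the main form in fibroblasts, read 2719, 2285 and 2469 RPM in Control and 1755, 1689.5 and 1877 RPM in 2MUT. Every 2MUT library was lower, and the change was -0.49 ± 0.09 (limma adjusted p = 0.00188). With 2-HG it read 1480.1, 1674 and 1792 RPM in 2-HG(-) and 2108, 1862 and 1729.9 RPM in 2-HG(+), overlapping, at 0.20 ± 0.12. Aldoc, the brain type, was at 0.54 RPM or less in every library of both tables. Triose phosphate isomerase, Tpi1, balances both products of aldolase. Its levels spread widely among replicates, at 835, 1159 and 1169 RPM in Control and 869, 1048 and 1003 RPM in 2MUT, and at 989, 636 and 905 RPM in 2-HG(-) and 687, 958 and 1008 RPM in 2-HG(+). Both pairs of groups overlapped, and the changes were -0.10 ± 0.13 and 0.07 ± 0.19.

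In the second table the same 2 libraries, replicate 2 of 2-HG(-) and replicate 1 of 2-HG(+), were the lowest of their groups for 9 of the 28 members tested, namely Hk1, Pfkl, Tpi1, G6pdx, Pgd, Taldo1, Tkt, Pdk3 and Mpc2. The same was true of 32.3% of all genes tested. They were both the highest of their groups for 3 members, Pdk1, Pdha1 and Dlat, and for 17.2% of all genes tested. The SE of the log2 change ranged from 0.09 for Tkt to 0.22 for Pfkl among these 9, of which Taldo1 was called.

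**Figure D2:**
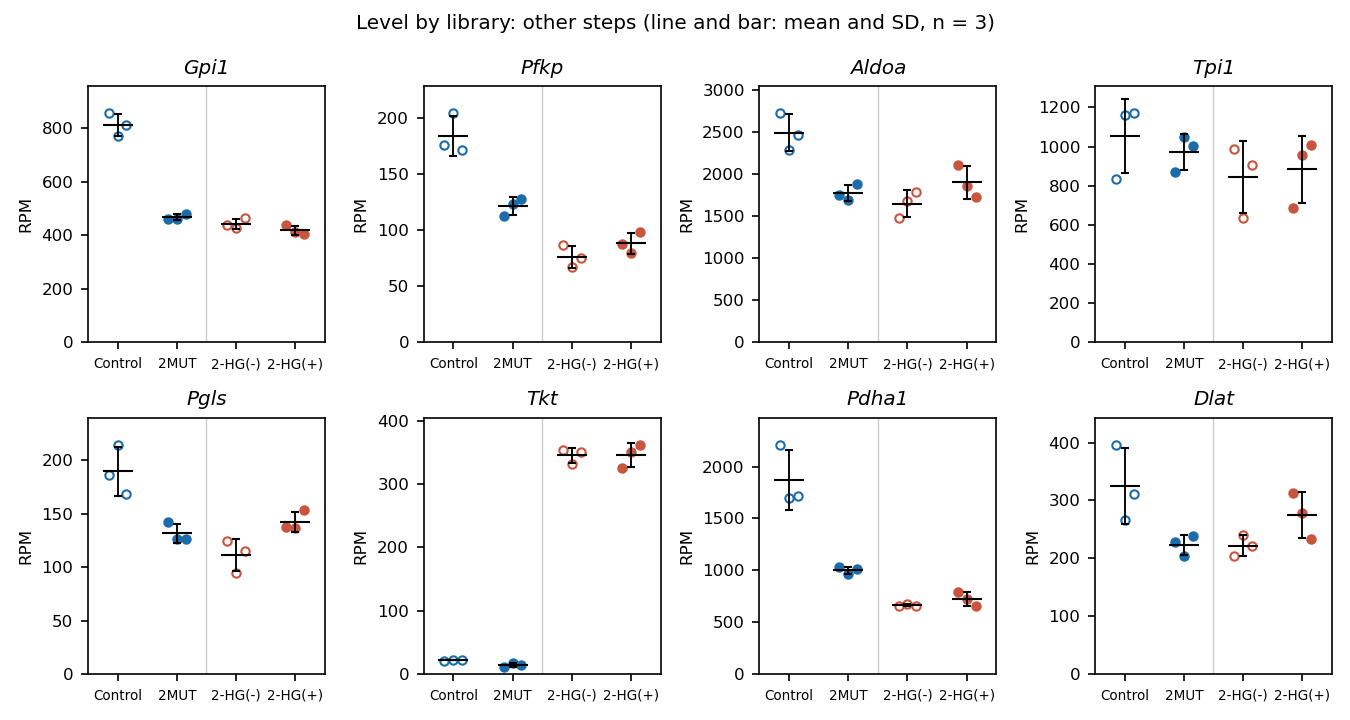
Level in RPM (vertical axis, from 0) of Gpi1, Pfkp, Aldoa, Tpi1, Pgls, Tkt, Pdha1 and Dlat in each library of Control, 2MUT, 2-HG(-) and 2-HG(+). Each point is a library, and the line and bar are the mean and SD of 3. Gpi1 fell from 769.9 to 855 RPM in Control to 462 to 481 RPM in 2MUT. Tkt stands at 21.2 to 22.5 RPM in Control, at 11.3 to 17.1 RPM in 2MUT and above 300 RPM on the right of its panel.

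From glyceraldehyde 3-phosphate to pyruvate, several steps were poorly measured. Gapdh, which oxidizes the triose, and Pgk1, which makes the first ATP of the payoff phase, are highly expressed in nearly all cells, yet the first table listed them at 1.02 to 3.28 RPM and 0.46 to 1.99 RPM, that is at 7 to 23 and 3 to 14 reads. Pgam1 and Eno1, the common phosphoglycerate mutase and enolase, stood at 0.28 and 1.24 RPM or less. These 4 were not listed in the second table. Pfkfb2 and Mpc1, also not listed there, held 2 reads or fewer per library in the first table. Values from so few reads are uncertain, and the reason for the low counts is not given in the sources used here. Gapdh read 3.25, 3.28 and 1.64 RPM in Control and 1.08, 1.02 and 1.24 RPM in 2MUT and was called lower at -0.78 ± 0.26 (limma adjusted p = 0.0394). The Gapdh call was lost without replicate 1 or 2 of Control and without any one of the 2MUT replicates, with limma adjusted p up to 0.125. Without Gapdh and Pgk1, 4 members were higher and 10 lower in 2MUT. Pgam2, the muscle mutase, was below the limit for testing but was seen at 1.24, 2.05 and 0.55 RPM in 2MUT and at 0, 0.14 and 0 RPM in Control. All Control values were under the detection limit.

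Enolase makes phosphoenolpyruvate. Eno2, the neuronal type, read 46.8, 59.3 and 52.8 RPM in Control and 26.1, 31.6 and 24.6 RPM in 2MUT, a change of -0.92 ± 0.14 (limma adjusted p = 0.000639). It was also lower with 2-HG, though from a low level, at 8.88, 5.95 and 7.99 RPM in 2-HG(-) and 5.09, 4.51 and 5.10 RPM in 2-HG(+). The groups did not overlap in either experiment. With 2-HG the change was -0.53 ± 0.16 (limma adjusted p = 0.0313), and the Eno2 call was lost without replicate 1 or 3 of 2-HG(-) or replicate 2 or 3 of 2-HG(+), with limma adjusted p up to 0.114. Eno3, the muscle type, moved in opposite directions. It read 25.3, 43.0 and 37.3 RPM in Control and 14.7, 14.3 and 13.1 RPM in 2MUT, the largest log2 fall among the members tested at -1.24 ± 0.19 (limma adjusted p = 0.000574). With 2-HG it rose from 45.1, 38.2 and 43.0 RPM to 63.0, 61.6 and 57.5 RPM, by 0.52 ± 0.11 (limma adjusted p = 0.00485). Neither Eno3 result was lost when any single library was left out. Of the neuronal markers, Rbfox3, Syp and Snap25 were at or under 0.10 RPM on average, Stmn2 was at 5.85 RPM in 2-HG(-) and 5.09 RPM in 2-HG(+), and Map2 was at 12.1 RPM in Control and 10.0 RPM in 2MUT. With 2-HG, Map2 was lower, as Eno2 was, at 14.1 and 6.99 RPM, a change of -0.93 ± 0.16 (limma adjusted p = 0.00205). Of the muscle markers, Myod1 and Ckm were at 0, and Des was called in neither experiment. Mylpf, under the mean needed for testing in the first table, read 1.48, 0.86 and 0.96 RPM in Control and 0.46, 0.44 and 0.55 RPM in 2MUT, lower without overlap as Eno3 was, and with 2-HG it was not called, at 3.78 and 3.40 RPM on average. Acta1, tested in neither table, read 1.14, 0.74 and 1.38 RPM in 2-HG(-) and 0.53, 0.66 and 0.59 RPM in 2-HG(+), lower without overlap where Eno3 rose. The part of these markers in the enolase results was not tested.

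Pkm encodes the pyruvate kinase of fibroblasts, which forms pyruvate. It read 3956, 3599 and 3683 RPM in Control and 4444, 4191 and 4032 RPM in 2MUT. All 2MUT libraries were above Control, yet the change of 0.17 ± 0.08 did not pass (limma adjusted p = 0.132). With 2-HG it read 4838, 4475 and 4775 RPM in 2-HG(-) and 4527, 4135 and 4208 RPM in 2-HG(+), with overlap and a change of -0.13 ± 0.11. The values do not separate the splice forms of Pkm.

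Lactate dehydrogenase is a tetramer of the A subunit, encoded by Ldha, and the B subunit, encoded by Ldhb. With 2-HG the subunits went in opposite directions. Ldha read 3068, 3322 and 3379 RPM in 2-HG(-) and 5684, 4682 and 4358 RPM in 2-HG(+), higher in every library by 0.58 ± 0.13 (limma adjusted p = 0.00763). Ldhb read 454, 393 and 372 RPM in 2-HG(-) and 203, 222 and 184 RPM in 2-HG(+), lower in every library, at -0.99 ± 0.11 (limma adjusted p = 0.000172). In 2MUT cells Ldhb was higher instead, at 236, 251 and 247 RPM in Control and 349.9, 353 and 354 RPM in 2MUT. The 2MUT replicates of Ldhb were within a few RPM of each other, and the rise was 0.52 ± 0.08 (limma adjusted p = 0.000769). Ldha overlapped in that experiment, at 6408, 5491 and 5404 RPM in Control and 5299, 5237 and 5433 RPM in 2MUT, with a change of -0.11 ± 0.09 (limma adjusted p = 0.362). None of the Ldha and Ldhb calls was lost when a single library was left out. The Ldha call with 2-HG was lost without a filter on low levels, where 18150 genes were tested in place of 10384 (limma adjusted p = 0.0606). Their promoter windows are printed above.

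**Figure D3:**
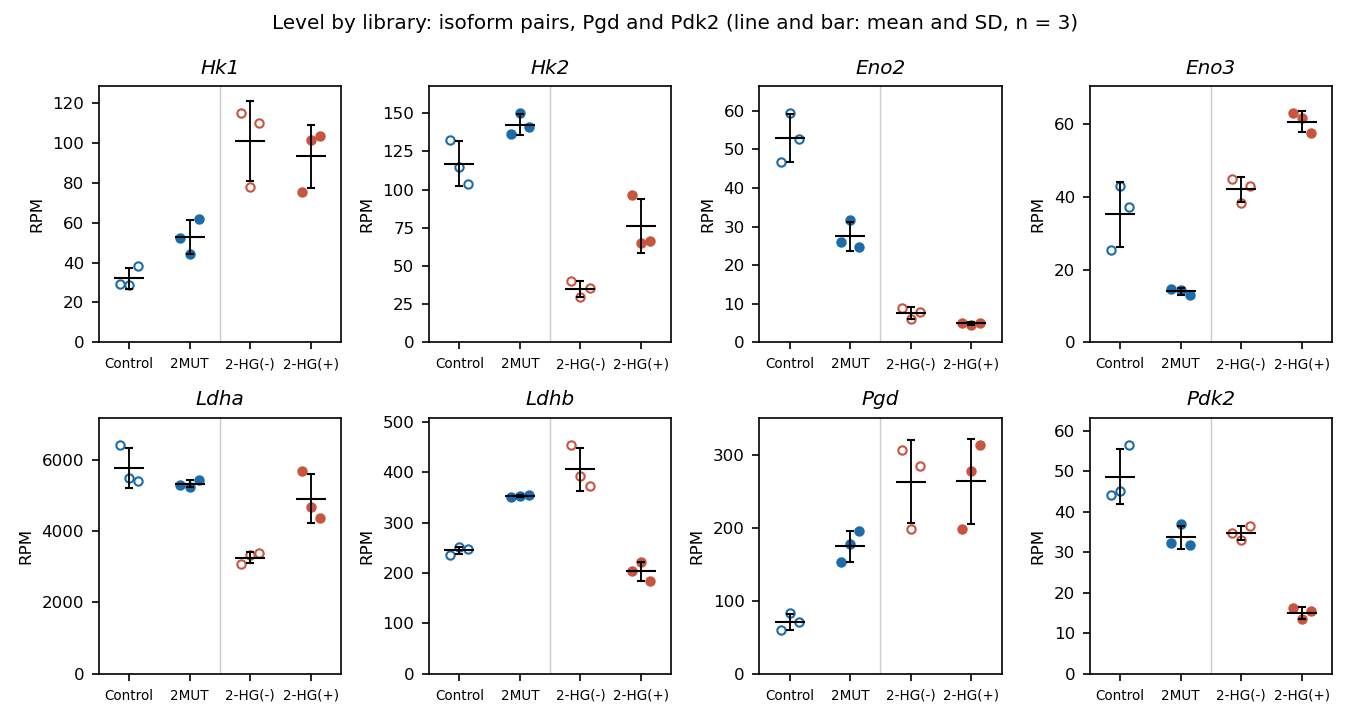
Level in RPM (vertical axis, from 0) of Hk1, Hk2, Eno2, Eno3, Ldha, Ldhb, Pgd and Pdk2 in each library of Control, 2MUT, 2-HG(-) and 2-HG(+). Points are libraries, and the line and bar are the mean and SD of 3. Ldhb and Eno3 change direction between the left and right sides of their panels, Pdk2 is lower in the treated group of both, and Pgd rose from 60.5 to 82.8 RPM in Control to 153 to 195 RPM in 2MUT while its 2-HG groups overlap.

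The bifunctional enzymes of the Pfkfb family make and remove fructose 2,6-bisphosphate, an activator of phosphofructokinase. Pfkfb3, whose kinase activity prevails, read 43.7 to 59.3 RPM in Control and 50.5 to 63.7 RPM in 2MUT, with overlap. With 2-HG it read 10.0, 8.96 and 8.77 RPM in 2-HG(-) and 11.4, 11.9 and 13.1 RPM in 2-HG(+). The groups did not overlap, but the change of 0.36 ± 0.13 missed the threshold (limma adjusted p = 0.0571). It passed under quantile normalization (limma adjusted p = 0.018) and by edgeR on recovered reads (adjusted p = 0.0354). Pfkfb4 was at 2.67 to 8.34 RPM across both tables and not called, and Pfkfb2 was listed at 0 in the first table and was not in the second.

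In the oxidative branch of the pentose phosphate pathway, the first enzyme was not called in either experiment, and Pgls and Pgd were called in 2MUT in opposite directions. G6pdx, the glucose 6-phosphate dehydrogenase that controls entry, read 137, 180.5 and 142 RPM in Control and 144, 168 and 147 RPM in 2MUT, a change of 0.0055 ± 0.12. It read 298, 225 and 318 RPM in 2-HG(-) and 212, 257 and 293 RPM in 2-HG(+), a change of -0.14 ± 0.15, and both pairs of groups overlapped. Pgls hydrolyses the lactone formed by G6pdx. It read 187, 214 and 169 RPM in Control and 142, 126 and 127 RPM in 2MUT, lower at -0.52 ± 0.11 (limma adjusted p = 0.00433). With 2-HG it was higher, at 124, 94.6 and 115 RPM in 2-HG(-) and 137, 137 and 153 RPM in 2-HG(+). The groups did not overlap, but the rise of 0.36 ± 0.12 was close to the threshold (limma adjusted p = 0.0421). It was lost without replicate 2 or 3 of 2-HG(-) and without any one replicate of 2-HG(+), with limma adjusted p up to 0.123, and also without both libraries that stood apart (limma adjusted p = 0.0711).

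Pgd, the 6-phosphogluconate dehydrogenase that yields the pathway's second NADPH, had the largest log2 rise of all members tested in 2MUT. It read 60.5, 82.8 and 71.2 RPM in Control and 153, 177 and 195 RPM in 2MUT. The lowest 2MUT library was far above the highest Control library, and the rise was 1.29 ± 0.14 (limma adjusted p = 4.99e-05), or 2.44-fold on the RPM + 1 scale. With 2-HG it read 306, 199 and 285 RPM in 2-HG(-) and 199, 278 and 314 RPM in 2-HG(+), overlapping, with a change of 0.0008 ± 0.20.

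Of the non-oxidative branch, Tkt and Taldo1 encode transketolase and transaldolase, which exchange carbon units between sugar phosphates. Tkt read 21.2, 22.5 and 22.0 RPM in Control and 11.3, 17.1 and 14.4 RPM in 2MUT. All 2MUT libraries were lower, at -0.60 ± 0.17 (limma adjusted p = 0.0195), and the Tkt call was lost without replicate 2 of Control (limma adjusted p = 0.0516) or replicate 1 of 2MUT (limma adjusted p = 0.0776). With 2-HG, Tkt read 354, 332 and 350.2 RPM in 2-HG(-) and 325, 351 and 362 RPM in 2-HG(+), with overlap and a change of 0.0014 ± 0.09. Taldo1 read 65.5, 71.9 and 74.4 RPM in Control and 68.4, 70.9 and 71.8 RPM in 2MUT, a change of -0.0033 ± 0.11. With 2-HG it was above every 2-HG(-) library, at 95.9, 119.9 and 126 RPM against 92.0, 73.5 and 86.2 RPM. The rise in Taldo1 was 0.43 ± 0.13 (limma adjusted p = 0.0303), and the call was lost without replicate 2 or 3 of 2-HG(-) or replicate 2 or 3 of 2-HG(+), with limma adjusted p up to 0.0976. Rpia, which isomerizes ribulose 5-phosphate, was at 3.60 to 7.47 RPM across both tables and not called.

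Pyruvate dehydrogenase kinases phosphorylate and switch off the pyruvate dehydrogenase complex. Pdk2 was lower in both experiments. It read 44.2, 45.2 and 56.5 RPM in Control and 32.3, 36.9 and 31.8 RPM in 2MUT, a change of -0.51 ± 0.14 (limma adjusted p = 0.0146). After 2-HG it read 16.2, 13.5 and 15.4 RPM, against 34.9, 33.1 and 36.4 RPM in 2-HG(-), the largest log2 fall of a member tested in that experiment at -1.16 ± 0.12 (limma adjusted p = 0.000101). No treated library reached the level of an untreated one in either table. The Pdk2 call in 2MUT was lost without replicate 1 or 3 of 2MUT, with limma adjusted p of 0.0525 and 0.0557, and the call with 2-HG was kept in all 6 such fits. Pdk3 read 128, 117 and 143 RPM in Control and 128, 139 and 152 RPM in 2MUT, and 132, 103 and 119 RPM in 2-HG(-) and 102, 118 and 126 RPM in 2-HG(+), with overlap in both. Pdk1, a kinase induced by HIF-1, overlapped in both as well, at 3.22 to 6.64 RPM in the first table and 136 to 165 RPM in the second. Pdk4 was at 0.71 RPM or less.

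The complex itself is made of the E1 subunits Pdha1 and Pdhb, the E2 subunit Dlat and shared components. Pdha1, the catalytic E1 subunit that the kinases phosphorylate, read 2209, 1702 and 1714 RPM in Control and 1029, 962 and 1008 RPM in 2MUT. Every 2MUT library was below every Control library, at -0.90 ± 0.11 (limma adjusted p = 0.000113). Its partner Pdhb read 105, 114 and 63.3 RPM in Control and 101, 114 and 111 RPM in 2MUT, with overlap and a change of 0.25 ± 0.19. Replicate 3 of Control was the low one, and without it the Pdhb change was -0.02. Dlat, the acetyltransferase, read 396, 266 and 311 RPM in Control and 228, 204 and 238 RPM in 2MUT, lower at -0.52 ± 0.13 (limma adjusted p = 0.012). The Dlat call was lost without replicate 2 of 2MUT (limma adjusted p = 0.0554). Of the shared components, which are not members, Pdhx, the E3-binding protein, was lower in 2MUT at -0.45 ± 0.14 (limma adjusted p = 0.0307) and was not called with 2-HG, at 0.15 ± 0.16. Dld, the E3 subunit, was higher with 2-HG at 0.45 ± 0.08 (limma adjusted p = 0.00319) and was not called in 2MUT, at -0.10 ± 0.10. With 2-HG the changes of Pdha1, Pdhb and Dlat were positive and did not pass. Pdha1 read 658, 679 and 659 RPM in 2-HG(-) and 791, 721 and 659 RPM in 2-HG(+), Pdhb 255, 239.7 and 238 against 249.6, 278 and 312 RPM, and Dlat 203, 241 and 221 against 313, 279 and 233 RPM. These groups overlapped, at 0.12 ± 0.10, 0.19 ± 0.10 and 0.30 ± 0.12, and Dlat passed only when replicate 3 of 2-HG(+) was left out (limma adjusted p = 0.0308).

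The mitochondrial pyruvate carrier is a dimer of Mpc1 and Mpc2. Mpc2 was at 71.5 to 99.4 RPM in the first table and 53.9 to 72.1 RPM in the second, not called in either. Mpc1 was at 0.29 RPM or less in the first table and not listed in the second.

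Whether a change differed between the experiments was tested for the 28 members measured in both, as the 2MUT change minus the 2-HG change over the 12 libraries. The difference passed the threshold (limma adjusted p under 0.05) for 14 members. It was positive for 4 of them, Hk1, Ldhb, Pgd and Pdk2, and negative for 10, namely Hk2, Gpi1, Pfkp, Aldoa, Eno3, Ldha, Pgls, Tkt, Pdha1 and Dlat. Among the 9594 genes tested in both, 19.9% passed with a positive and 19.5% with a negative difference, 39.4% in all. The sign gives the direction only, and a negative difference can come from a fall in 2MUT, as for Gpi1, or from a rise with 2-HG, as for Hk2. Ldhb, at 1.52 ± 0.14 (limma adjusted p = 1.74e-06), and Eno3, at -1.76 ± 0.23 (limma adjusted p = 4.09e-05), were the extremes, and each had been called in opposite directions in the separate comparisons. Pgls was the third member with opposite calls, with a difference of -0.88 ± 0.17 (limma adjusted p = 0.00104). Hk2 differed by -0.79 ± 0.22 (limma adjusted p = 0.0115) and Ldha by -0.70 ± 0.16 (limma adjusted p = 0.00336). On the positive side were Pgd, at 1.28 ± 0.27 (limma adjusted p = 0.00175), and Hk1, at 0.80 ± 0.25 (limma adjusted p = 0.022). The Hk1 difference was lost when replicate 2 of Control, replicate 3 of 2MUT, replicate 1 or 3 of 2-HG(-) or replicate 1 of 2-HG(+) was left out, with limma adjusted p up to 0.0597. Without replicate 1 of 2-HG(-) and replicate 3 of 2-HG(+) together, the differences of Hk1 and Tkt were lost (limma adjusted p = 0.054 for both).

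Eno2 and Pdk2 were the 2 of 28 members called lower in both experiments, as were 3.06% of the 9594 genes tested in both. Calls in opposite directions, those of Eno3, Ldhb and Pgls, were made for 9.38% of these genes. The fall in Pdk2 was larger with 2-HG, by 0.65 ± 0.18 (limma adjusted p = 0.0105), and for Eno2 the difference of -0.39 ± 0.22 did not pass (limma adjusted p = 0.181). No member was called higher in both, where 1.5% of all genes were, a share so low that a count of 0 in 28 says little. The difference between the comparisons did not pass for Pfkm either, at 0.0046 ± 0.13. Of the members tested in both, 10 were called in neither comparison, as were 47.1% of all genes, namely Tpi1, Pkm, Pfkfb3, Pfkfb4, G6pdx, Rpia, Pdk1, Pdk3, Pdhb and Mpc2.

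**Figure D4:**
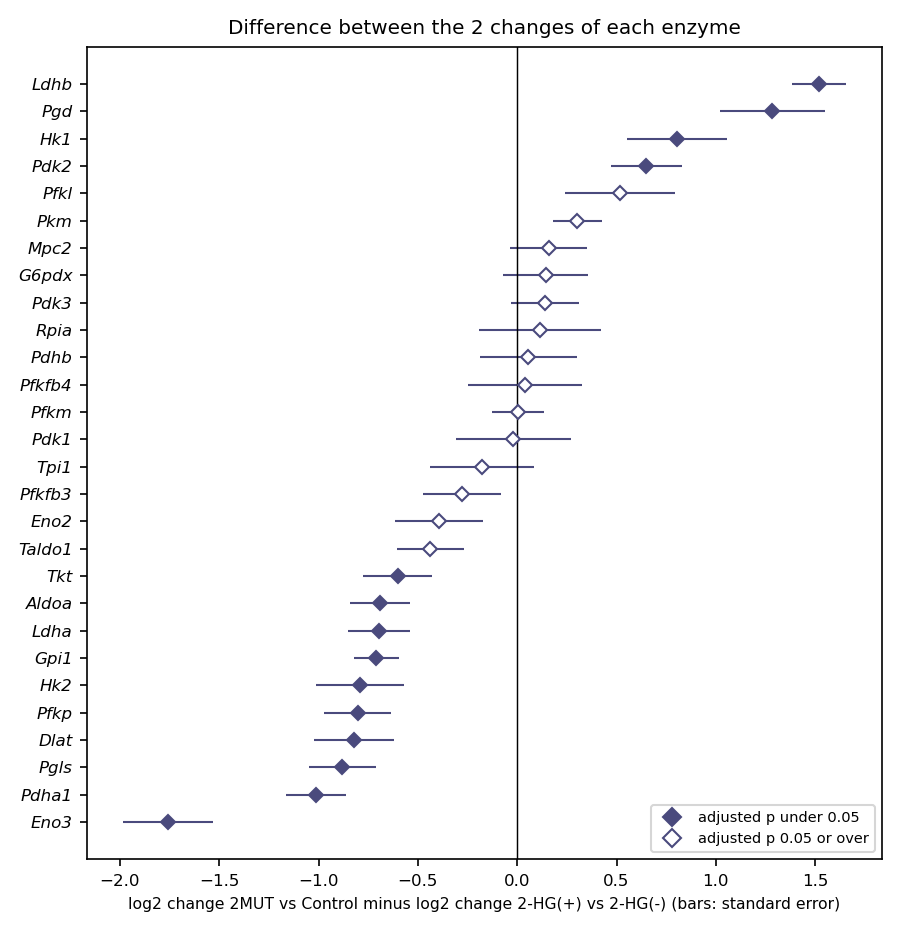
Difference between the log2 changes of each of the 28 members tested in both experiments (horizontal axis, 2MUT change minus 2-HG change, bars are standard errors, 12 libraries). Filled diamonds passed the threshold. Ldhb at 1.52 and Pgd at 1.28 lie at the right and Eno3 at -1.76 at the left, with Pfkm at 0.0046 near 0.

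For cells without mutant IDH2 or 2-HG, the 2 tables did not list the same levels. The tables were normalized separately and list different entries, so their levels are set side by side with no test. Pdk1 averaged 4.97 RPM in Control and 159 RPM in 2-HG(-), 32.1 times as much, and Tkt averaged 21.9 and 345 RPM, 15.8 times as much. Among all genes tested in both, 6.26% differed by more than 10-fold between these groups. Of these, 532 were higher in 2-HG(-) and 69 lower, so Pdk1 and Tkt lie on the commoner side. Pgd, at 71.5 and 263 RPM, and Hk1, at 32.1 and 101 RPM, were also higher in 2-HG(-). Eno2 was the member furthest in the other direction, at 52.9 and 7.60 RPM. Hk2 averaged 117 RPM in Control and 35.1 RPM in 2-HG(-). Whether cell passage, vector, selection, library preparation or counting reference differed between the experiments cannot be told apart from the experiments themselves.

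**Figure D5:**
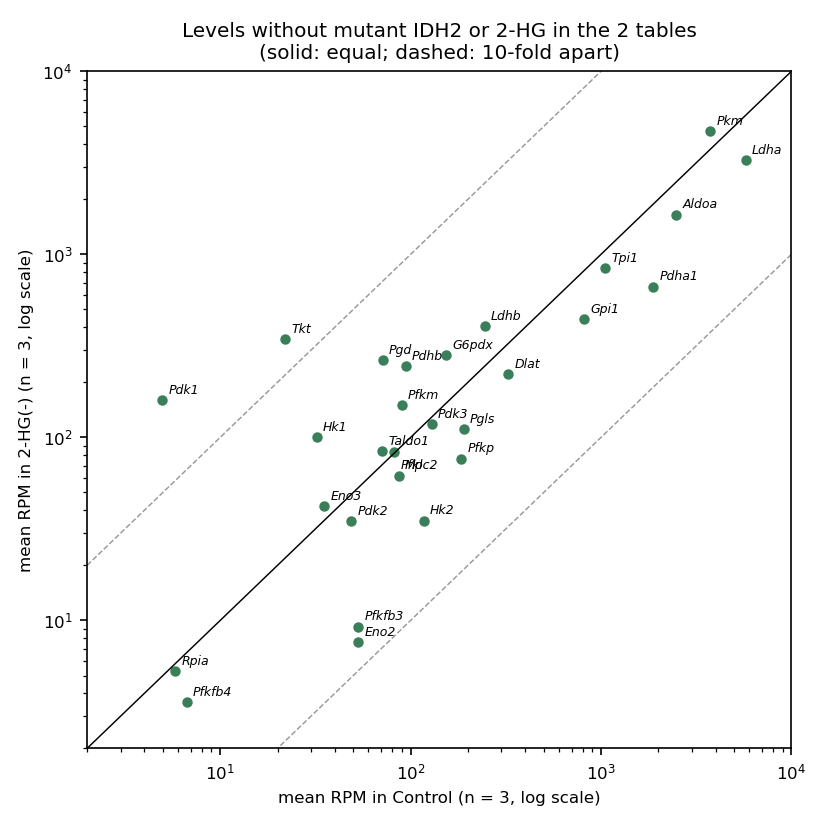
Mean level of each of the 28 members tested in both tables in Control (horizontal axis) and in 2-HG(-) (vertical axis), both in RPM on log scales, 3 libraries each. The solid line marks equal levels and the dashed lines a 10-fold difference. Pdk1 and Tkt lie above the upper dashed line, and Eno2 and Pfkfb3 lie nearest to the lower one.

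A list of 41 other enzymes of these pathways, chosen by function, gives the setting. In 2MUT 6 of the 25 tested were higher and 5 lower, where 16.5% and 17.3% of all genes tested were. With 2-HG 9 of 25 were higher and 3 lower, where 16.1% and 16.7% of all genes were. Adpgk, an ADP-dependent glucokinase, rose in both, by 0.64 ± 0.10 in 2MUT (limma adjusted p = 0.000883) and 0.55 ± 0.10 with 2-HG (limma adjusted p = 0.00221). Tigar, a phosphatase that lowers fructose 2,6-bisphosphate, also rose in both, by 0.65 ± 0.15 (limma adjusted p = 0.00645) and 0.65 ± 0.16 (limma adjusted p = 0.0137). In the first table it is listed under an older name.

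Prps1, which makes phosphoribosyl pyrophosphate, fell by 0.98 in 2MUT (log2, ± 0.15, limma adjusted p = 0.000582) and rose by 0.83 ± 0.12 with 2-HG (limma adjusted p = 0.00077). Prps2, of the same function, fell by 0.82 in 2MUT (± 0.16, limma adjusted p = 0.00238) and was at 0.08 with 2-HG. Pc, the pyruvate carboxylase, rose by 0.43 ± 0.15 in 2MUT (limma adjusted p = 0.0493) and fell by 0.86 with 2-HG (± 0.16, limma adjusted p = 0.00271). Pck2, the mitochondrial phosphoenolpyruvate carboxykinase, rose by 0.91 ± 0.15 with 2-HG (limma adjusted p = 0.00175) and was at -0.41 in 2MUT, not called.

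The pyruvate dehydrogenase phosphatases reverse the action of the kinases, and 1 of them fell with 2-HG. Pdp1, the calcium-activated phosphatase subunit, was at 57.2, 55.8 and 60.3 RPM in 2-HG(-) and 14.1, 16.2 and 15.7 RPM in 2-HG(+). The 2-HG(+) libraries were all far below, and the log2 change was -1.85 ± 0.11 (limma adjusted p = 4.1e-06), beside -1.16 for Pdk2. In 2MUT Pdp1 was at 0.21 ± 0.15, not called. Pdp2, the other catalytic subunit, was not called in either, at -0.20 ± 0.25 in 2MUT and -0.19 ± 0.19 with 2-HG. Pdpr, the regulatory subunit, rose by 0.52 ± 0.11 in 2MUT (limma adjusted p = 0.00522) and was at 0.11 ± 0.12 with 2-HG, not called. Gpd2, the mitochondrial glycerol phosphate dehydrogenase, was lower in 2MUT at -0.61 ± 0.16 (limma adjusted p = 0.011) and was at -0.02 ± 0.11 with 2-HG, not called. Ldhc, the testis form of lactate dehydrogenase, rose from 4.34 ± 0.99 RPM in Control (mean ± SD, n = 3) to 16.7 ± 1.4 RPM in 2MUT, by 1.74 ± 0.20 (limma adjusted p = 7.75e-05), and was listed at 0 in every library of the second table. Bpgm, which makes 2,3-bisphosphoglycerate, rose by 1.10 ± 0.19 in 2MUT (limma adjusted p = 0.00123). With 2-HG, G6pc3, a glucose 6-phosphatase, rose by 0.56 ± 0.17 (limma adjusted p = 0.0287) and Pfkfb1 by 0.53 ± 0.16 (limma adjusted p = 0.0262). In the first table replicate 3 of Control read 10.3 RPM for G6pc3 against 106 and 116 RPM in the other two.

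Among 6 transporters and regulators, Slc2a1, the glucose transporter GLUT1, rose by 1.49 ± 0.11 in 2MUT (limma adjusted p = 4.37e-06) and 0.82 ± 0.13 with 2-HG (limma adjusted p = 0.00121). Slc16a1, the lactate and pyruvate transporter MCT1, rose by 0.78 ± 0.12 (limma adjusted p = 0.000589) and 0.73 ± 0.13 (limma adjusted p = 0.00271). Slc16a3, another transporter in that list, averaged 0.14 RPM or less in every group and was not tested. Hif1a, which encodes the inducible subunit of HIF-1, rose by 1.62 ± 0.10 in 2MUT (limma adjusted p = 1.27e-06) and was at 0.016 ± 0.13 with 2-HG. Myc, an E-box factor that drives many glycolytic genes, rose by 0.80 ± 0.12 with 2-HG (limma adjusted p = 0.00102) and was at -0.30 ± 0.14 in 2MUT. Ppargc1a, a coactivator of mitochondrial genes, was lower in both, at -0.37 ± 0.11 (limma adjusted p = 0.0245) and -0.79 ± 0.13 (limma adjusted p = 0.0017). The transcript of Hif1a is not a measure of HIF-1 protein, which is controlled mainly by degradation.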

How the data were processed

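Groups were taken from the sample labels, 4 groups of 3 MEF libraries, and the RNA-seq values of these 12 were analysed. The authors mapped the Ion AmpliSeq reads to the AmpliSeq mouse transcriptome reference with TMAP, obtained gene counts from Torrent Suite Software 5.2.2 (AmpliSeqRNA plug-in 5.2.0.3) and deposited RPM in a table for each experiment. The genome build behind that reference is not given in the sources used here. Whole reads could be recovered for 100% of the values of every library (the worth of 1 read was found from the lowest steps), and depth is given with the libraries. Low depth limits genes with few reads most.

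Within each table, log2(RPM + 1) was fitted by limma 3.58.1 (R 4.3.3) using a trend and no covariate. Genes averaging under 1 RPM were left out. The threshold was a Benjamini-Hochberg adjusted p under 0.05 over all genes tested. The study names a Student's test per gene with the same adjustment, which is the unmoderated alternative. The difference between experiments was a contrast over the 12 libraries. A fold change on this scale understates the change of low genes. edgeR 4.0.16 and DESeq2 1.42.0 on the recovered reads were alternatives. By edgeR, 3764 and 3546 genes were called, and by limma 3741 and 3405. Also tried were each library left out, a block on replicate number, quantile normalization, median-of-ratios scaling, a filter at 10 RPM or none, an added value of 0.1, a floor of 1 RPM and a fit with no trend. Leaving out each of 2 pairs of libraries and not counting Gapdh and Pgk1 were added after seeing the data. The tests were checked on simulated data.

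The members and lists were chosen with earlier results of these data known. Values in every library are given for members past the threshold in at least 1 comparison or averaging 100 RPM or more in both tables. Other enzymes are named where called with an absolute log2 change of at least 0.5. Pdhx, Dld and Pdp2 fall short of that and are named beside the other parts of the pyruvate dehydrogenase complex and its phosphatases. Lists of other enzymes were matched by symbol or RefSeq synonym. Promoter windows come from RefSeq on GRCm38.p6, and the transcribed end of 47 of 55 windows was found at a GENCODE M21 transcript start. Tables were handled with pandas 2.3.3 and plots drawn with matplotlib 3.10.9. Promoters were read on both strands.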

Additional observations from a re-analysis of the deposited data

How the results depend on the processing

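Over 1646 values of single members under an alternative, 1483 kept both direction and call, 66 lost the call, 18 gained one and 79, called in neither fit, changed sign. No called value reversed. By the unmoderated test, 2 members were higher and 6 lower in 2MUT, in place of 4 and 11, and the calls over all genes went from 3741 to 2244 in 2MUT and from 3405 to 2237 with 2-HG. Without a filter, 3 were higher with 2-HG in place of 5. With the replicate number as a block, 3 members were higher and 2 lower with 2-HG, and 4 higher and 10 lower in 2MUT. The numbers were not taken to pair the libraries, since same-numbered libraries deviated with correlations of 0.03 to 0.07 in the first table and of -0.46, -0.16 and 0.06 in the second, and over all genes the block moved the calls with 2-HG from 3405 to 2503. Without one library, 4 to 5 members were higher and 8 to 11 lower in 2MUT, with a median change of -0.156 to -0.081. With 2-HG, 3 to 5 were higher and 2 to 3 lower, with a median of -0.089 to 0.072. In the test of the difference, 3 to 5 passed with a positive and 10 to 11 with a negative value. The cause of these shifts was not tested. Leaving out replicate 2 of 2-HG(-) with replicate 1 of 2-HG(+) left 4 higher and 3 lower, and 6 positive and 11 negative calls in the difference. Leaving out replicate 1 of 2-HG(-) with replicate 3 of 2-HG(+) left 3 higher and 2 lower, and 3 positive and 9 negative calls. The values of Gapdh, Pgk1, Pgam1, Pgam2, Eno1, Pfkfb2, Mpc1, Aldoc and Pdk4 rest on 23 reads or fewer in every library, and the cause of their low counts was not tested.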
